A study of Mus musculus with 6 samples.

Results

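The genes described here are 42 genes of the endoplasmic reticulum (ER) that fold, move and quality-check proteins of the secretory pathway, together with the genes of the stress responses that follow a build-up of unfolded protein. They were chosen by gene symbol, all 42 had a row in the deposited tables, and the tables held 24927 rows in all. The assay was RNA-seq of whole livers, with 3 libraries labelled Cdkl3-/- and 3 libraries labelled wild type, all from C57BL/6 mice labelled male, 10 months old and fed chow. The series describes the deletion as made in the liver, and the labels name the genotype only as Cdkl3-/-, so the driver of the deletion is not given in the sources used here. Cdkl3 encodes a cyclin-dependent kinase-like protein, and the series asks what its loss does to the liver transcriptome.

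Proteins bound for secretion enter the ER through the Sec61 channel while they are made. Inside, the Hsp70 chaperone BiP (Hspa5), the Hsp90 chaperone GRP94 (Hsp90b1), the sugar-binding chaperones calreticulin and calnexin, and the disulfide isomerases help them fold. Proteins that fail to fold are returned to the cytosol and destroyed, a route called ER-associated degradation. When unfolded protein accumulates, the sensors IRE1 (Ern1), PERK (Eif2ak3) and ATF6 raise transcription of these same helpers, IRE1 through the spliced factor Xbp1 and PERK through the factors Atf4 and Ddit3. Hepatocytes secrete most plasma proteins and are rich in ER.

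ATF6 and XBP1 act on short promoter elements, and the promoters of some genes on the list that hold such an element are shown here as examples. The ER stress element, ERSE, was searched as CCAAT, 9 bases of any kind and CCACG, its short form ERSE-II as ATTGG, any 1 base and CCACG, the core of the unfolded protein response element as TGACGTGG and the core of the amino acid response element as TGATGNAAT, all on both strands. The promoters came from RefSeq on GRCm38.p6, with 250 bases before and 50 after each start, and 37 of the 42 genes had 40 promoters there. Hyou1, Manf, Derl1, Sec61a1 and Ssr2 had no entry. The 250 bases before the start are printed 5′ to 3′ along the gene, with the matches in capitals, for Hspa5 (chr2:34771840-34772089, plus strand), Hsp90b1 (chr10:86705445-86705694, minus strand), Calr (chr8:84846932-84847181, minus strand), Herpud1 (chr8:94386179-94386428, plus strand) and Canx (chr11:50325674-50325923, minus strand). Capitals mark ERSE in Hspa5, Hsp90b1, Calr and Canx and ERSE-II in Herpud1.
Hspa5: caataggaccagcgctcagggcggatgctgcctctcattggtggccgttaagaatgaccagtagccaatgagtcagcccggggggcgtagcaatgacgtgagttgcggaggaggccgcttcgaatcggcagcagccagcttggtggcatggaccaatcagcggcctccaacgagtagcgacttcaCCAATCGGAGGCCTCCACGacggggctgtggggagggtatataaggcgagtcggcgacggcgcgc
Hsp90b1: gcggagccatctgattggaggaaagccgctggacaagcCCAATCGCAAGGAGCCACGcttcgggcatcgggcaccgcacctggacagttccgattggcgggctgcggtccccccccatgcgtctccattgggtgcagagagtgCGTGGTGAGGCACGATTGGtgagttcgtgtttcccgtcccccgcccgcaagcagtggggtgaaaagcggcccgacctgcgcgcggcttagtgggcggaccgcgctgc
Calr: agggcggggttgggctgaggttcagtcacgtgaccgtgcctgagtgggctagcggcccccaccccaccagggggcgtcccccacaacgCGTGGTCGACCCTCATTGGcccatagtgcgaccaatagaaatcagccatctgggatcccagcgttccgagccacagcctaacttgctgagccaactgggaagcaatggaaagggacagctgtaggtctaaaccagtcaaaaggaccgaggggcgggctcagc
Herpud1: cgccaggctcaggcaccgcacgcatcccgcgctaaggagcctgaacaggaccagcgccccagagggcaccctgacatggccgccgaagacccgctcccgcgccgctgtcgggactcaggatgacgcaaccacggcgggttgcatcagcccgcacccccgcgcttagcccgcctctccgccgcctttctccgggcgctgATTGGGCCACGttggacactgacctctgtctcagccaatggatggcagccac
Canx: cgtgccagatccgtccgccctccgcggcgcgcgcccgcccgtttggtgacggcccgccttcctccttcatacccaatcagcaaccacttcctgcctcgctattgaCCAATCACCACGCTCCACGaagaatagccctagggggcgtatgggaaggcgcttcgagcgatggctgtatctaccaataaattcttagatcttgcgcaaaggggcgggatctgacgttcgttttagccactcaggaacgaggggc

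ERSE was found in 9 of the 40 promoters (22.5%), and in 39 of all 32851 promoters in the table (0.119%). The 9 genes with ERSE were Hspa5, Hsp90b1, Dnajc3, Creld2, Calr, Canx, Pdia6, Syvn1 and Derl3. Hsp90b1 held 2 copies, at -212 to -194 and, on the other strand, at -107 to -89 from the start, while the copy in Hspa5 lay at -65 to -47. ERSE-II was found in Herpud1 and, past the start of transcription, in Dnajb11 (5% of the 40 promoters, against 0.0365% of all), and the unfolded protein response core in Txndc5 alone of these genes (2.5% against 0.676%). The amino acid response core was in none of the 40 promoters and in 0.965% of all. No ERSE match overlapped a match of the other elements in these promoters. Several of these genes are on the list because they are known targets of this response, so the share with ERSE is a description of the list, and a match does not show binding.

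**Figure D1:**
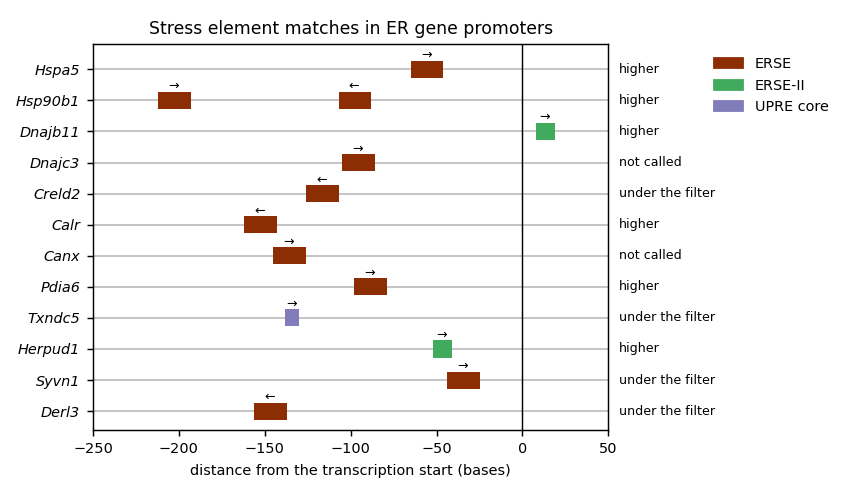
Positions of the stress element matches in the promoters of 12 ER genes, in bases from the RefSeq start of transcription. Each bar is 1 match and the arrow above it its strand; the word at the right gives the result for that gene in the libraries labelled Cdkl3-/- against wild type (limma, adjusted p under 0.05). Of the 9 genes with ERSE, 4 were called higher, Dnajc3 and Canx were not called, and 3 were under the filter on low values. With or without an element, 17 of the 25 tested ER genes were called higher, as were 33.7% of all tested genes.

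Facts of the whole libraries bear on every value below. Cdkl3 itself measured 0.0761, 0.146 and 0.195 FPKM (fragments counted per kilobase of exon, relative to the library's mapped fragments) in the libraries labelled Cdkl3-/-, against 0.166, 0.0883 and 0.119 FPKM in those labelled wild type (two-sided exact permutation test, p = 0.8, where 3 against 3 cannot go below 0.1). These values do not separate the groups, so each library is called by its label. Xist was at 0.0125 to 0.0273 FPKM in the libraries labelled Cdkl3-/- and at 192 to 292 FPKM in those labelled wild type, and the Y-linked gene Ddx3y at 38.2 to 50.8 against 0.0694 to 0.207 FPKM, although all mice are labelled male. Sex as these genes show it and the labelled genotype cannot be told apart in any difference below. The depth, recovered from the steps of the FPKM values, was 24530000 to 39550000 counted reads in the libraries labelled Cdkl3-/- and 20460000 to 48610000 in those labelled wild type. The mitochondrial share of summed FPKM was 69.5%, 70.1% and 63.2% in replicates 1 to 3 labelled Cdkl3-/-. In those labelled wild type this share was higher, at 73.7%, 73.9% and 70.5%. At least 1 FPKM was reached by 6016 to 6388 rows per library labelled Cdkl3-/- and by 5038 to 5437 per library labelled wild type. Fits rescaled without mitochondrial transcripts are given below, and the part of the row counts in the differences was not tested. Kap, known from kidney, was at 5264 FPKM in replicate 1 labelled Cdkl3-/- and at 5.72 FPKM or less elsewhere, and results are given without that library where the call changes. Gapdh, which nearly all cells use, was listed at 0 in 2 of the libraries labelled wild type, so a gene at 0 is described here only as listed at 0.

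The ER genes were mostly higher in the libraries labelled Cdkl3-/-. Log2(FPKM + 1) was fitted with limma over the 5673 genes that reached 1 FPKM in at least 3 libraries, and 25 of the 42 genes passed this filter. Of these 25, 17 rose and 1 fell at a Benjamini-Hochberg adjusted p under 0.05, where 33.7% of all tested genes rose and 20.4% fell. The median log2 difference was 1.23 over the 25 genes and 0.12 over all 5673. Dnajb11, Pdia4, Sec61a1 and Sec61g were under 1 FPKM in each wild type library and met the filter through the libraries labelled Cdkl3-/- alone, so these 4 could hardly have been counted as falls. Among genes with a mean of at least 1 FPKM in the libraries labelled wild type, a filter chosen after seeing the data, 13 of 21 rose, against 22.1% of all genes tested that way. Without a filter, 20 of the 39 genes with any value above 0 rose, against 15.4%. The groups did not overlap, with the libraries labelled Cdkl3-/- higher, for 16 of the 25 genes and for 38% of all tested genes. In whole tissue, a change in the number of cells of a type and a change in RNA per cell cannot be told apart.

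**Figure D2:**
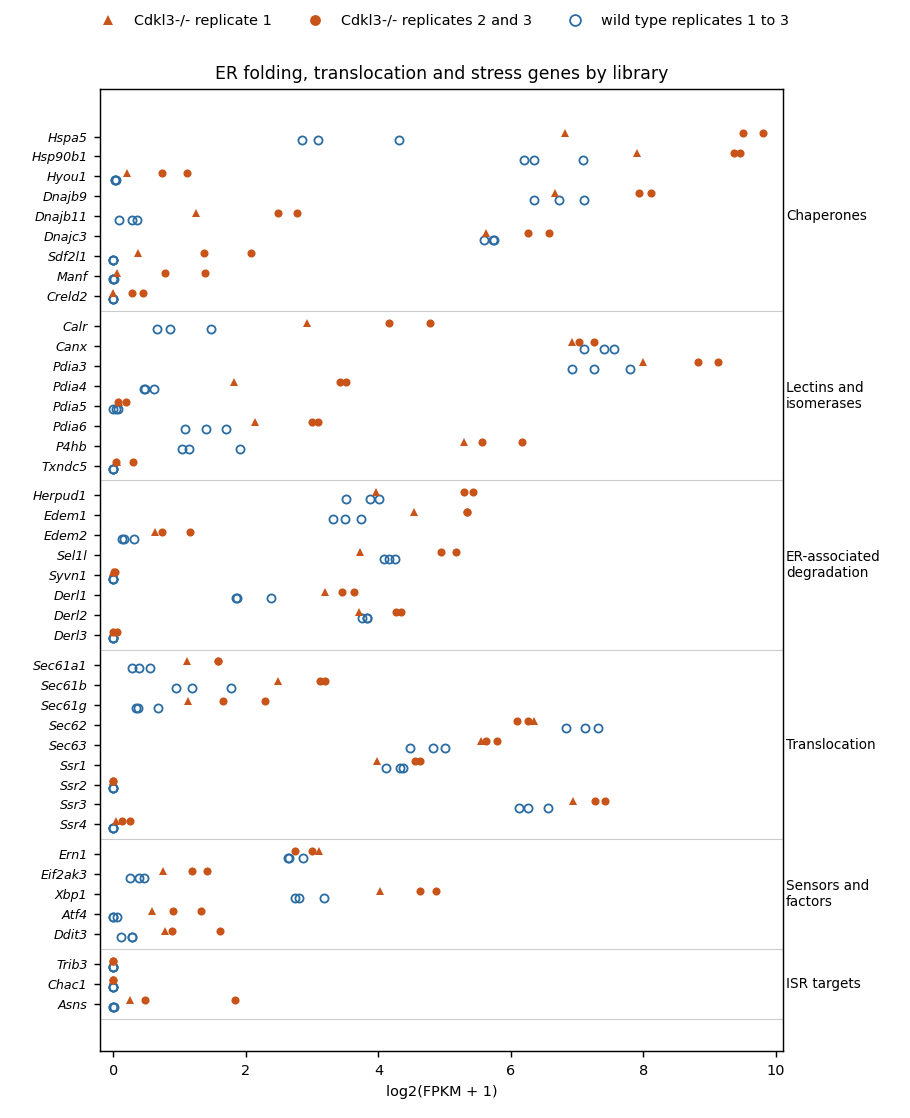
Level of each of the 42 genes as log2(FPKM + 1) in each of the 6 libraries, grouped by role; filled orange symbols are the libraries labelled Cdkl3-/- (the triangle is replicate 1) and open blue circles those labelled wild type. For Hspa5, Calr and Xbp1 the triangle lies between the wild type circles and replicates 2 and 3, and Ssr2, Trib3 and Chac1 lie at 0 in all libraries.

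Summed over the 42 genes, replicates 1, 2 and 3 labelled Cdkl3-/- held 1290, 3236 and 2933 FPKM, and those labelled wild type 977, 879 and 936 FPKM. Replicate 1 was thus much nearer to the libraries labelled wild type than to its own group. As a share of all FPKM outside mitochondrial transcripts, the sums were 0.779%, 2.01% and 1.41% against 0.682%, 0.603% and 0.620%. Chaperones alone came to 500, 1924 and 1758 FPKM in the libraries labelled Cdkl3-/-, against 282, 236 and 276.5 FPKM (wild type), while translocation genes came to 270, 329 and 312 FPKM against 255, 250 and 282 FPKM.

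**Figure D3:**
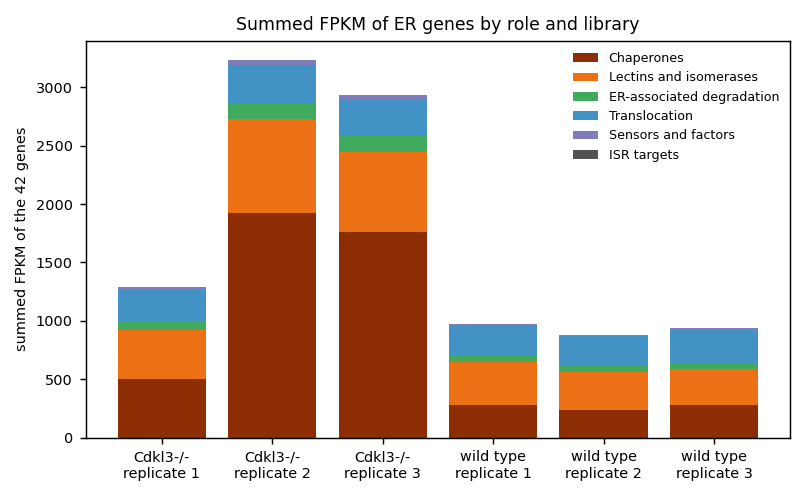
Summed FPKM of the 42 genes in each library, stacked by role, with the 3 libraries labelled Cdkl3-/- at the left. The sum runs from 1290 to 3236 FPKM in the libraries labelled Cdkl3-/- and from 879 to 977 FPKM in those labelled wild type, and most of the difference is in the chaperones.

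Of the 9 chaperones and co-chaperones, 5 were tested, 3 rose and none fell, beside 33.7% and 20.4% of all tested genes. Hspa5, which encodes BiP, the main ER Hsp70 and the brake on all of the stress sensors, measured 112, 893 and 721 FPKM in replicates 1 to 3 labelled Cdkl3-/-, against 18.8, 6.18 and 7.54 FPKM in those labelled wild type. Every library labelled Cdkl3-/- was above every library labelled wild type, and replicates 2 and 3 stood far above replicate 1. The means were 575 ± 411 and 10.9 ± 6.95 FPKM (SD, n = 3 each), a ratio of 53.0, and the log2 difference was 5.29 (SE 0.89, adjusted p = 0.0043). Its position in GENCODE M21 (GRCm38) is chromosome 2, 34771970 to 34777547, plus strand. Without replicate 1 the log2 difference was 6.23.

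Hsp90b1, the ER Hsp90, measured 237, 699.7 and 658 FPKM, against 136, 72.1 and 80.1 FPKM in those labelled wild type. The groups did not overlap and the log2 difference was 2.36 (SE 0.44, adjusted p = 0.0033). Dnajb11, a J-domain co-chaperone that hands clients to BiP, had 1.39, 5.84 and 4.61 FPKM, against 0.274, 0.216 and 0.0604 FPKM, and rose by 1.93 (SE 0.36, adjusted p = 0.0035). Its values rest on 110 to 748 reads per library labelled Cdkl3-/- and 4 to 34 per library labelled wild type.

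The other tested co-chaperones did not pass the threshold. Dnajb9, which helps BiP hold IRE1 inactive, measured 101, 244 and 277 FPKM in the libraries labelled Cdkl3-/-, against 80.2, 105 and 137 FPKM. Dnajc3, a co-chaperone also known as an inhibitor of PERK, measured 48.2, 75.3 and 94.2 FPKM against 47.3, 52.4 and 52.2 FPKM. In both, replicate 1 labelled Cdkl3-/- lay within the range of the libraries labelled wild type while replicates 2 and 3 lay above it. The log2 differences were 0.85 (95% interval -0.05 to 1.75, adjusted p = 0.099) and 0.46 (-0.11 to 1.03, adjusted p = 0.15). Without replicate 1 both passed, at 1.30 (adjusted p = 0.0051) and 0.73 (adjusted p = 0.016). With the replicate number as a block, Dnajb9 also passed (adjusted p = 0.035).

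Of the 4 chaperones under the filter, none had a library labelled wild type above 0.023 FPKM. Hyou1, an Hsp110 that recharges BiP, had 0.152, 1.15 and 0.663 FPKM in the libraries labelled Cdkl3-/-, against 0.0230, 0.0171 and 0.0203 FPKM, or 27, 329 and 128 reads against 6, 6 and 3. Sdf2l1, a partner of ER J-domain proteins, had 8, 142 and 47 reads against a listed 0 in all 3 labelled wild type. Manf, a secreted stress-induced protein, had 3, 223 and 67 reads against 1 in wild type replicate 1 and a listed 0 in the others. Creld2, another stress-induced ER protein, was listed at 0 in replicate 1 and had 20 and 8 reads in replicates 2 and 3 labelled Cdkl3-/-, against a listed 0 in all 3 labelled wild type. In the fit without a filter the adjusted p was 0.084 for Hyou1, 0.071 for Sdf2l1, 0.16 for Manf and 0.17 for Creld2, so these values did not pass the threshold.

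Among the lectin chaperones and disulfide isomerases, 5 of 6 tested genes rose and none fell, beside 33.7% and 20.4% of all tested genes. P4hb, the classical protein disulfide isomerase and a subunit of collagen prolyl hydroxylase, measured 38.3, 70.7 and 46.3 FPKM in the libraries labelled Cdkl3-/-, against 2.75, 1.06 and 1.21 FPKM. Here replicate 1 was close to replicate 3, and all 3 were far above the libraries labelled wild type. The ratio of means was 31.0, and the log2 difference of 4.31 (SE 0.30) had the smallest adjusted p of the 25 genes, 7.2e-05. P4hb is on chromosome 11 (120560298 to 120573253, minus strand).

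Calr, or calreticulin, which binds glycoproteins and calcium, measured 6.60, 26.4 and 16.9 FPKM in the libraries labelled Cdkl3-/-, against 1.77, 0.807 and 0.577 FPKM, a log2 difference of 2.96 (SE 0.46, adjusted p = 0.0016). Pdia4, an isomerase of several thioredoxin domains, measured 2.52, 10.4 and 9.70 FPKM against 0.382, 0.523 and 0.387 FPKM, a log2 difference of 2.40 (SE 0.43, adjusted p = 0.0029). Both were above the wild type range in every library labelled Cdkl3-/-, with replicate 1 the lowest. Pdia6, which acts on BiP clients and on the sensors, measured 3.42, 7.55 and 7.01 FPKM against 1.65, 2.26 and 1.12 FPKM, a log2 difference of 1.35 (SE 0.28, adjusted p = 0.0050). Pdia3, the isomerase that works with calreticulin and calnexin, measured 253, 558 and 453 FPKM against 222, 152 and 121 FPKM, a log2 difference of 1.32 (SE 0.34, adjusted p = 0.012). The groups did not overlap in either, but replicate 1 labelled Cdkl3-/- and replicate 1 labelled wild type lay close to each other in Pdia3. The call of Pdia3 was lost once trends of the values on GC content and exon length were taken out (adjusted p = 0.060).

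Canx, or calnexin, the membrane-bound relative of calreticulin, measured 121, 129 and 151 FPKM in the libraries labelled Cdkl3-/-, against 137, 168 and 188 FPKM. The groups overlapped, and the log2 difference was -0.29 (95% interval -0.73 to 0.15, adjusted p = 0.23). The ratio of means was 15.8 for Calr and 0.815 for Canx, the promoters of both hold ERSE, and the difference between these ratios was not tested. Median centring of the libraries made Canx a fall (-0.57, adjusted p = 0.044), as did rescaling without mitochondrial transcripts (-0.67, adjusted p = 0.028). Pdia5 and Txndc5, further members of the isomerase family, were under the filter, with 4 to 16 and 4 to 41 reads per library labelled Cdkl3-/- and at most 5 and a listed 0 per library labelled wild type.

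In ER-associated degradation, 3 of 5 tested genes rose and none fell, beside 33.7% and 20.4% of all tested genes. Edem1, a lectin that picks out misfolded glycoproteins, measured 22.2, 39.4 and 39.5 FPKM in the libraries labelled Cdkl3-/-, against 12.3, 10.3 and 8.93 FPKM, a log2 difference of 1.56 (SE 0.25, adjusted p = 0.0015). Derl1, a membrane protein of the channel that returns proteins to the cytosol, measured 8.18, 11.4 and 9.88 FPKM against 4.18, 2.60 and 2.63 FPKM, a log2 difference of 1.40 (SE 0.21, adjusted p = 0.0010). In both the groups did not overlap.

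Herpud1, a stress-induced scaffold of the ubiquitin ligase complex, measured 14.6, 38.1 and 41.98 FPKM in the libraries labelled Cdkl3-/-, against 13.7, 15.2 and 10.4 FPKM. Replicate 1 labelled Cdkl3-/- lay within the wild type range, and the log2 difference of 1.09 (SE 0.38, adjusted p = 0.039) had the highest adjusted p of the 17 rises. Leaving out any library other than replicate 1 labelled Cdkl3-/- ended the call, with adjusted p from 0.068 to 0.13, and after removal of the GC and length trend the log2 difference was 0.14 (adjusted p = 0.74). Without replicate 1 labelled Cdkl3-/- the difference was 1.56 (adjusted p = 0.00098).

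Sel1l, the adaptor of the ubiquitin ligase, measured 12.3, 29.9 and 35.0 FPKM against 16.0, 16.8 and 18.1 FPKM (wild type), and Derl2, a relative of Derl1, 12.0, 19.3 and 18.3 FPKM against 13.2, 12.5 and 13.3 FPKM. Replicate 1 labelled Cdkl3-/- was the lowest of the 6 libraries for both genes, and replicates 2 and 3 were the highest. The log2 differences of 0.45 (95% interval -0.35 to 1.25) and 0.30 (-0.16 to 0.76) did not pass (adjusted p = 0.30 and 0.24), and without replicate 1 they were 0.89 (adjusted p = 0.0052) and 0.50 (adjusted p = 0.039). Edem2, a mannosidase-like relative of Edem1, was under the filter with 0.542, 1.23 and 0.670 FPKM against 0.240, 0.0950 and 0.113 FPKM, and passed in the fit without a filter (adjusted p = 0.033). The ubiquitin ligase Syvn1, the partner of Sel1l, had at most 2 reads per library labelled Cdkl3-/- and was listed at 0 in all 3 labelled wild type. Derl3, a stress-induced relative of Derl1 and Derl2, had 2 reads in replicate 3 labelled Cdkl3-/- and was listed at 0 in the other libraries.

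**Figure D4:**
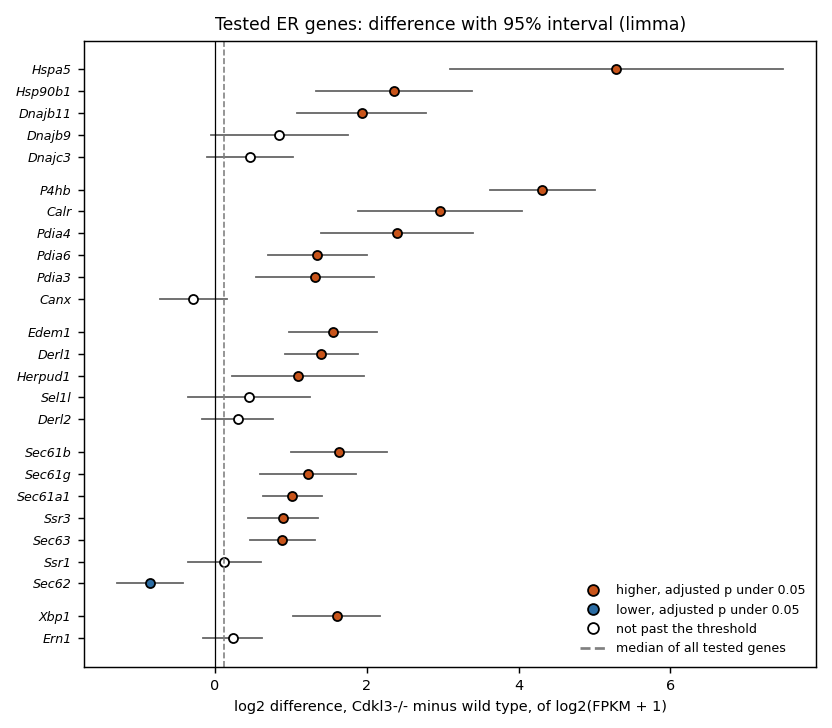
Difference of log2(FPKM + 1), libraries labelled Cdkl3-/- minus those labelled wild type, for the 25 tested genes, with the 95% interval from limma (3 libraries in each group), grouped by role. Orange points rose and the blue point, Sec62, fell; white points did not pass the threshold. The dashed line is the median of all 5673 tested genes, 0.12.

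The translocation genes went both ways, with 5 of 7 tested rising and 1 falling, beside 33.7% and 20.4% of all tested genes. Sec61 is a channel of 3 subunits, and all 3 rose in the libraries labelled Cdkl3-/- at low levels. The pore subunit Sec61a1 measured 1.17, 1.98 and 1.99 FPKM against 0.462, 0.214 and 0.305 FPKM (wild type), a log2 difference of 1.02 (SE 0.17, adjusted p = 0.0016). Sec61b measured 4.59, 8.16 and 7.71 FPKM against 1.27, 2.41 and 0.923 FPKM, a log2 difference of 1.64 (SE 0.27, adjusted p = 0.0018). Sec61g measured 1.19, 3.88 and 2.14 FPKM against 0.270, 0.292 and 0.595 FPKM, a log2 difference of 1.23 (SE 0.28, adjusted p = 0.0066). In each of them every library labelled Cdkl3-/- was above every library labelled wild type, and the call of Sec61b was lost after removal of the GC and length trend (0.55, adjusted p = 0.088). Sec61a1 and Sec61g stayed under 1 FPKM in all libraries labelled wild type. Only their values in the libraries labelled Cdkl3-/- brought both genes into the test, which left little room for a fall in either.

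Sec62 and Sec63, which together help proteins enter through Sec61 after their synthesis, moved in opposite directions. Sec62 measured 80.7, 66.9 and 75.8 FPKM in the libraries labelled Cdkl3-/-, against 112, 138 and 158 FPKM, and fell by 0.85 on the log2 scale (SE 0.19, adjusted p = 0.0062). Sec63, which carries the J-domain that recruits BiP, measured 46.0, 54.3 and 48.2 FPKM against 31.1, 21.2 and 27.5 FPKM, and rose by 0.88 (SE 0.19, adjusted p = 0.0050). Neither gene's groups overlapped. Sec62 was called lower in every alternative fit tried, from -0.74 to -1.24, and Sec63 was called higher in all of them except the one rescaled without mitochondrial transcripts (0.53, adjusted p = 0.084). Sec62 is on chromosome 3 (30792875 to 30821263, plus strand) and Sec63 on chromosome 10 (42761496 to 42832514, plus strand).

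The translocon-associated complex, TRAP, binds Sec61 and consists of the products of Ssr1, Ssr2, Ssr3 and Ssr4. Ssr3 measured 122, 170 and 154 FPKM in the libraries labelled Cdkl3-/-, against 93.6, 68.7 and 75.1 FPKM, a log2 difference of 0.90 (SE 0.20, adjusted p = 0.0067), which was no longer called after rescaling without mitochondrial transcripts (0.52, adjusted p = 0.098). Ssr1 measured 14.8, 23.8 and 22.5 FPKM against 16.3, 19.6 and 19.0 FPKM, with overlapping groups and a log2 difference of 0.12 (95% interval -0.36 to 0.60, adjusted p = 0.65). Ssr4 had 2, 24 and 8 reads against a listed 0 in all 3 labelled wild type, and Ssr2 was listed at 0 in all 6 libraries. Levels of the subunits of the same complex therefore ranged from a listed 0 to over 100 FPKM in the same libraries.

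Of the stress sensors, Ern1 (IRE1) measured 7.60, 5.71 and 6.98 FPKM in the libraries labelled Cdkl3-/-, against 5.30, 5.22 and 6.26 FPKM, with overlapping groups and a log2 difference of 0.23 (95% interval -0.16 to 0.62, adjusted p = 0.28). Xbp1, the factor that IRE1 activates by splicing its mRNA, measured 15.3, 28.3 and 23.7 FPKM against 8.02, 6.00 and 5.67 FPKM. Its groups did not overlap, and it rose by 1.60 (SE 0.25, adjusted p = 0.0012). A value per gene does not separate its spliced from its unspliced mRNA. Eif2ak3 (PERK) had 0.677, 1.65 and 1.27 FPKM against 0.382, 0.304 and 0.195 FPKM and was under the filter.

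Atf4, the factor translated when PERK or a related kinase is active, had 0.501, 1.51 and 0.857 FPKM in the libraries labelled Cdkl3-/-, against 0.0353 FPKM, which is 3 reads, in wild type replicate 1 and a listed 0 in the other libraries labelled wild type. Ddit3 (CHOP), a factor that Atf4 raises, had 0.714, 2.04 and 0.852 FPKM against 0.211, 0.216 and 0.0856 FPKM. In Eif2ak3, Atf4 and Ddit3 every library labelled Cdkl3-/- was above every library labelled wild type, and in the fit without a filter the log2 differences were 0.74 (adjusted p = 0.034), 0.92 (adjusted p = 0.019) and 0.86 (adjusted p = 0.040). At these levels the log2(FPKM + 1) scale understates the change.

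None of the 3 targets of Atf4 and Ddit3 on the list passed the filter. Trib3, a pseudokinase, and Chac1, an enzyme that breaks down glutathione, were listed at 0 in all 6 libraries. Asns, asparagine synthetase, had 13, 278 and 29 reads in the libraries labelled Cdkl3-/-, against 1 read in wild type replicate 1 and a listed 0 in the others, and did not pass in the fit without a filter (adjusted p = 0.19). Replicate 2 alone reached 1 FPKM, at 2.57 FPKM.

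Replicate 1 labelled Cdkl3-/- differed from the other 2 of its group across these genes. It was the lowest of the 3 for 23 of the 25 tested genes, all except Sec62 and Ern1, whereas it was the lowest for 44.1% of all tested genes. Its value was a median of 0.569 of the mean of replicates 2 and 3 over the 25 genes, with a range from 0.139 (Hspa5) to 1.20 (Ern1), and a median of 0.921 over all tested genes. Replicates 2 and 3 both lay above every library labelled wild type for 22 of the 25 genes, against 42.7% of all tested genes. Without replicate 1, 21 of the 25 genes rose, against 33.2% of all tested genes, and Dnajb9, Dnajc3, Sel1l and Derl2 were the additional ones. Kidney markers summed to 5295 FPKM in replicate 1, 4.55 and 6.04 FPKM in replicates 2 and 3 and 0.817 to 2.86 FPKM in those labelled wild type. Kap alone was 5264, 4.18 and 5.72 FPKM of the sums in replicates 1 to 3. It was the only gene of that list tested and was not called (limma, adjusted p = 0.15). Calb1 and Slc12a1, under the filter, were at 16.6 and 9.77 FPKM in replicate 1. In replicates 2 and 3 both were lower than in every library labelled wild type. The part of the kidney markers in the lower ER gene values of replicate 1 was not tested.

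The level of these genes went with the base composition of their transcripts. Over the 41 genes with a length and GC content, Spearman's correlation coefficient between GC content and mean log2(FPKM + 1) was -0.774 in the libraries labelled Cdkl3-/- and -0.817 in those labelled wild type, and over 22034 rows of all genes it was -0.215 and -0.345. The points share libraries and are not replicates. The 10 genes under 45% GC, among them Canx, Ssr3 and Hsp90b1, had a median of 73.5 FPKM in the libraries labelled Cdkl3-/- and 64.9 FPKM in those labelled wild type. The 8 genes of 55% GC or more, among them Ssr2, Syvn1, Trib3 and Chac1, had medians of 0.0106 and 0 FPKM.

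Differences between groups went with GC content as well. Of the 10 tested genes under 45% GC 4 rose and 1 fell, of the 7 from 45 to 50% GC 6 rose, and of the 7 from 50 to 55% GC 6 rose. The 1 tested gene of 55% GC or more, Sec61b, rose. From the lowest to the highest of these ranges, the share of all tested genes that rose was 21.3%, 44.8%, 55.5% and 48.6%. The last range held 105 tested genes. Spearman's coefficient between the log2 difference and GC content was 0.439 over the 25 genes and 0.357 over 5539 genes. Between the log2 difference and exon bases it was -0.586 over the 25 genes. Once the trends on GC content and exon length were taken out of each library, 14 of the 25 genes rose and 1 fell, where 25.1% of all 5539 genes in that fit rose and 26.9% fell. The median log2 difference was 0.78 over the 25 genes and -0.05 over all. Hspa5 (4.97) and P4hb (3.42) were among the 14.

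**Figure D5:**
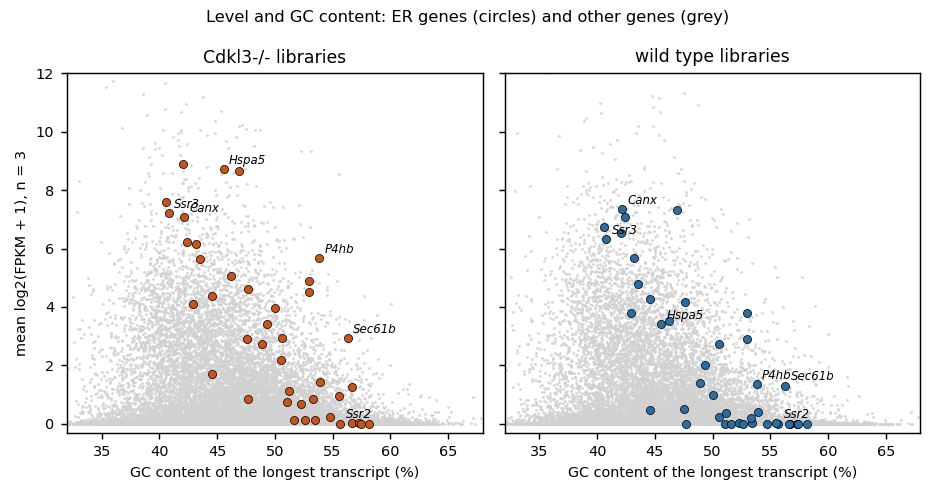
Mean log2(FPKM + 1) over the 3 libraries of each group against the GC content of the longest transcript, for the 41 ER genes with a GC content (circles) and all other usable rows (grey; rows above 12 on the log2 scale or outside 32 to 68% GC are not drawn). In both panels ER genes above 55% GC lie low, Sec61b highest among them, and Hspa5 and P4hb sit higher in the libraries labelled Cdkl3-/-.

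Other genes of the secretory pathway were counted from 6 lists, leaving out symbols without a usable row, and their counts stand beside the 33.7% of all tested genes that rose and the 20.4% that fell. Of 11 tested genes of the signal recognition particle and signal peptidase, which target and trim new chains, 7 rose and none fell in the libraries labelled Cdkl3-/-, with a median log2 difference of 0.73. The peptidase subunit Sec11c measured 4.61 ± 1.27 FPKM in the libraries labelled Cdkl3-/- and 0.458 ± 0.206 FPKM in those labelled wild type, Sec11a 4.66 ± 1.69 and 0.572 ± 0.214 FPKM, and the receptor subunit Srpr 2.19 ± 0.953 and 0.103 ± 0.0689 FPKM (adjusted p = 0.00032, 0.00071 and 0.00085). These 3 were under 1 FPKM in all 3 libraries labelled wild type, so they were tested through the other group and could hardly have been counted as falls. Of 5 tested genes of N-glycan transfer and trimming 4 rose and none fell. Glucosidase II subunit Ganab measured 2.98 ± 1.97 and 0.115 ± 0.0386 FPKM, and the catalytic subunits Stt3a and Stt3b measured 7.11 ± 2.25 and 2.58 ± 0.323 FPKM, and 28.6 ± 8.30 and 12.8 ± 1.16 FPKM (adjusted p = 0.0019, 0.0035 and 0.0063). Ganab too was tested only because of its values in the libraries labelled Cdkl3-/-. Once the GC and length trends were taken out, 2 of the 5 rose, and Stt3b was at 0.51 (adjusted p = 0.066).

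Further folding enzymes rose in 4 of 11 tested cases and fell in 1, a share of rises near that of all tested genes. Prdx4, an ER peroxidase, measured 26.1 ± 10.99 FPKM in the libraries labelled Cdkl3-/- and 1.39 ± 0.293 FPKM in those labelled wild type, the cyclophilin Ppib 13.4 ± 6.35 and 1.84 ± 1.06 FPKM, and the oxidase Ero1b 20.0 ± 8.61 and 3.89 ± 0.661 FPKM (adjusted p = 0.00011, 0.0013 and 0.0015). Of 9 tested other genes of ER-associated degradation 3 rose and 2 fell, shares near those of all tested genes, with Selenos at 6.94 ± 2.64 and 0.491 ± 0.186 FPKM, the ubiquitin-conjugating enzyme Ube2j2 at 3.43 ± 0.710 and 0.668 ± 0.219 FPKM, and Ufd1 at 3.24 ± 1.15 and 0.669 ± 0.363 FPKM (adjusted p = 0.00032, 0.00056 and 0.0030). Selenos and Ube2j2 met the filter through the libraries labelled Cdkl3-/- alone. Of 7 tested further stress response genes 3 rose and none fell, namely the eIF2 alpha kinases Eif2ak1 (2.55 ± 0.380 and 0.219 ± 0.190 FPKM) and Eif2ak2 (8.31 ± 1.41 and 4.41 ± 1.81 FPKM) and the factor Creb3l2 (3.28 ± 0.782 and 0.582 ± 0.108 FPKM), with adjusted p of 0.00027, 0.025 and 0.00049. Eif2ak1 and Creb3l2 were under 1 FPKM in all 3 libraries labelled wild type. The call of Eif2ak2 was lost without a filter (adjusted p = 0.072) and without replicate 1 or 2 labelled Cdkl3-/- (0.053 and 0.080) or replicate 2 or 3 labelled wild type (0.087 and 0.082). The eIF2 alpha phosphatase subunit Ppp1r15a and the hormone Fgf21, both raised in the integrated stress response, were listed at 0 in all 6 libraries and were named after their values were seen.

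The COPII coat and its cargo receptors, which carry folded proteins out of the ER, had 6 of 12 tested genes higher and 3 lower, against 33.7% and 20.4% of all tested genes. Surf4, a cargo receptor, measured 12.4 ± 3.45 FPKM in the libraries labelled Cdkl3-/- and 0.442 ± 0.291 FPKM in those labelled wild type, the coat GTPase Sar1a 6.48 ± 1.41 and 1.10 ± 0.0296 FPKM, and the receptor subunit Mcfd2 33.1 ± 10.16 and 10.7 ± 3.33 FPKM (adjusted p = 7.8e-05, 0.00023 and 0.0030). Surf4 was under 1 FPKM in all 3 libraries labelled wild type. The paralog Sar1b, named after its values were seen, fell to 185 ± 29.4 FPKM in the libraries labelled Cdkl3-/-, against 372 ± 75.7 FPKM (adjusted p = 0.0069). After median centring 25.4% of all tested genes rose and 33.3% fell, and the counts were 3 higher and 3 lower for further folding enzymes and for other degradation genes, 2 and 1 for further stress response genes and 4 and 0 for the signal recognition particle and peptidase.

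Marker genes of the cell types in a liver piece were summed beside these values. Their counts stand beside the 33.7% of all tested genes that rose and the 20.4% that fell. With the GC and length trends taken out, these shares were 25.1% and 26.9%. Hepatocyte markers summed to 2323, 3389 and 2453 FPKM in the libraries labelled Cdkl3-/- and to 753, 516 and 442 FPKM in those labelled wild type. Of 6 tested, 5 rose and none fell (3 rose once the GC and length trends were taken out), with Cyp2e1 at 1177 ± 177 and 143 ± 77.2 FPKM and Alb at 1137 ± 441 and 324 ± 88.4 FPKM. The part of this in the ER gene differences was not tested. Plasma cells, which are also rich in ER, had 2 of 7 markers with a usable row tested and none called, their sums overlapped (9.33 to 44.7 against 14.7 to 30.4 FPKM), and the defining marker Mzb1 was listed at 0 in all 6 libraries. Jchain measured 19.0 ± 12.5 and 20.6 ± 8.04 FPKM and Ms4a1 2.32 ± 3.17 and 1.94 ± 0.210 FPKM. Markers of pancreatic acinar cells summed to at most 0.154 FPKM in the libraries labelled Cdkl3-/- and 2.23 FPKM in those labelled wild type.

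All 3 tested stellate cell markers fell in the libraries labelled Cdkl3-/-, where 20.4% of all tested genes fell. The list summed to 21.3 to 32.3 against 76.1 to 129.7 FPKM. Dcn (22.0 ± 6.42 and 80.8 ± 30.5 FPKM) made up most of these sums, and Lrat measured 4.13 ± 1.59 and 8.08 ± 1.22 FPKM. The 2 under the filter had higher means in the libraries labelled Cdkl3-/- and were not called without a filter. They were Col1a1 (0.0520 and 0.0260 FPKM) and Acta2 (0.0593 and 0.0211 FPKM), named after their values were seen. Of 4 tested endothelial markers 3 fell and none rose, with sums of 7.33 to 8.40 against 11.6 to 14.4 FPKM, and Lyve1 and Kdr measured 2.04 ± 0.195 and 4.34 ± 1.04 FPKM, and 2.26 ± 0.185 and 3.95 ± 0.972 FPKM. The 4 endothelial markers under the filter had higher means in the libraries labelled Cdkl3-/-, and none was called without a filter. They were Clec4g (0.545 and 0.199 FPKM), Ehd3 (0.381 and 0.0504), Pecam1 (0.0837 and 0) and Stab2 (0.0831 and 0.0469), named after their values were seen. Kupffer cell markers had 1 rise and 1 fall of 4 tested and overlapping sums (13.1 to 59.5 against 15.9 to 33.5 FPKM), led by Vsig4 (20.4 ± 15.9 and 12.6 ± 6.67 FPKM) and Cd5l (7.56 ± 5.14 and 3.79 ± 2.70 FPKM), which did not pass. The fall was Adgre1 (1.93 ± 0.874 and 5.63 ± 0.347 FPKM, adjusted p = 0.0038) and the rise Lyz2 (2.46 ± 2.18 and 0.104 ± 0.166 FPKM, adjusted p = 0.014), both named after their values were seen. Lyz2 met the filter through the libraries labelled Cdkl3-/- alone and was not called once the GC and length trends were taken out (adjusted p = 0.24). Cholangiocyte markers had 1 rise of 2 tested, Sox9 at 1.81 ± 0.511 and 0.752 ± 0.327 FPKM, beside Spp1 at 40.2 ± 11.8 and 58.2 ± 8.95 FPKM, which did not pass; after median centring, or with the GC and length trends taken out, this list had no rise and 1 fall. Kdr (adjusted p = 0.066) and Lrat (0.064) were not called without a filter.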

How the data were processed

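RNA-seq of whole mouse liver was analysed in 6 libraries, 3 labelled Cdkl3-/- and 3 labelled wild type, from the authors' deposited FPKM tables (unit per the file headers). Per the submitters' processing notes, HISAT2 and GRCm39 were used. The versions, the counting tool and the annotation were not given in the sources used here. The header of replicate 3 labelled Cdkl3-/- carries another code than its title, and the label was followed. Identifier and symbol named the same gene in 0 of 24927 rows. FPKM times the exon bases of GENCODE M21 (GRCm38, matched by symbol) gave whole reads, within 0.15 read, for 98.9% of 43485 values of up to 40 reads, but for 30.9% to 36.6% per library in a block of chromosome 1 genes, so symbols were used and the 1787 block rows and 127 rows without a symbol were left out. Read numbers come from these steps.

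The fit used limma 3.58.1 (R 4.3.3) on log2(FPKM + 1) (trend, robust moderation, two-sided, genotype as the only term), adjusted by Benjamini-Hochberg over 5673 genes with at least 1 FPKM in 3 libraries, threshold 0.05. The fit was also run on simulated libraries, with independent normal values around the real gene means and spreads. These held no GC trend and no outlying library, so that run does not cover such features of the real libraries. Labels do not say that each library came from its own mouse, so each p-value covers only the spread among the libraries, which may be technical. The 42 genes and the lists were chosen with earlier results of these data known; each of the 42 is given, with up to 3 genes of smallest adjusted p from each further list and up to 2 of highest mean FPKM from each marker list. GC content is that of the longest M21 transcript, and trends were removed by loess (span 0.5) for 5539 genes. Promoters were RefSeq's (GRCm38.p6). Protein sequences, and Atf6, whose row lies in the block left out, were not analysed here. Python 3.11.15 (pandas 2.3.3, numpy 2.4.6, scipy 1.17.1, matplotlib 3.10.9) did the rest. Alternatives were other pseudocounts, filters, scalings and thresholds, a replicate block, and leaving out each library.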

Additional observations from a re-analysis of the deposited data

How the results depend on the processing

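Over 18 alternative settings the number of ER genes that rose stayed between 13 and 21, except under a filter of 10 FPKM in 3 libraries, which tests 16 of them and gave 9 (468 higher and 559 lower of all genes). No filter tests 39 of them and gave 20 (3171 and 1045 of all genes). The number that fell was 1 in all settings except median centring and rescaling without mitochondrial transcripts, which gave 2, with Canx the addition. Leaving out each library gave 16 to 21 rises and a median log2 difference of 0.94 to 1.51. The replicate block gave 17 rises and 1 fall, adding Dnajb9 (adjusted p = 0.035) and losing Herpud1 (adjusted p = 0.053), and changed no other call among the 25. The labels do not say whether the replicate numbers pair the libraries. Correlations of same-numbered deviations from the group means were -0.049, -0.096 and 0.181. Those of differently numbered libraries ran from -0.347 to 0.345, and such values cannot decide whether the libraries are paired. Scaling moved the whole distribution, since median centring lowered each difference by 0.28 and gave 1443 higher and 1891 lower of all 5673 genes, against 1911 and 1157 as deposited, and rescaling without mitochondrial transcripts gave 1315 and 1785. Quantile normalization gave 1427 and 1761, removal of the GC and length trend 1391 and 1492 of 5539, and a threshold of 0.01 gave 1395 and 656. A wild type mean of at least 1 FPKM, a filter added after seeing the data, gave 1072 and 1166 of 4857. Rescaling without mitochondrial transcripts ended the calls of Pdia3, Herpud1, Sec63 and Ssr3, removal of the GC and length trend those of Pdia3, Herpud1 and Sec61b, and a threshold of 0.01 those of Pdia3 and Herpud1. The causes were not tested. Of the 42 genes, 17 did not reach the filter and 3 of them were listed at 0 in all 6 libraries; the part of depth in this was not tested. No gene of the 42 was called in opposite directions by 2 settings.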
